A study of Mus musculus with 21 samples.

Results

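The 10 genes described here encode 2 Transformer-2 splicing activators (Tra2a, Tra2b), 6 serine/arginine-rich (SR) splicing factors (Srsf1, Srsf2, Srsf3, Srsf5, Srsf6, Srsf7) and 2 CDC-like kinases that phosphorylate SR proteins (Clk1, Clk4). They were chosen by symbol from the 27179 gene IDs of the counts table, with Tra2a chosen on its roughly 2-fold lower level after CAWS, so their values in that contrast are given as a description and carry no p. All 10 had enough reads to be tested. On GRCm38, Tra2a (Entrez gene 101214) lies at chr6:49243921-49264248, Tra2b (20462) at chr16:22244552-22266005, Clk1 (12747) at chr1:58411988-58424088 and Clk4 (12750) at chr11:51263114-51281770. Srsf1 (110809) and Srsf2 (20382) lie on chromosome 11, Srsf3 (20383) and Srsf7 (225027) on chromosome 17, Srsf5 (20384) on chromosome 12 and Srsf6 (67996) on chromosome 2. The study made 21 RNA libraries from cells sorted out of C57BL/6 mice, 3 in each of 7 groups. 3 groups were cardiac macrophages from mice challenged with CAWS, the Candida albicans water-soluble complex that gives mice a model of Kawasaki disease. Cells without Ccr2 were divided by MHC-II into a low gate, R1, and a high gate, R2, and cells with Ccr2 and high MHC-II formed R3. The same 3 populations were sorted from hearts of naive mice, and the last group was Ccr2-positive monocytes from spleens of naive mice. Per the series design, each treatment had 3 independent pools of mice. The labels used here do not state the dose, the time after CAWS, or the sex and age of the mice.

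SR proteins bind exonic enhancer sequences through RNA recognition motifs and recruit the spliceosome through domains rich in arginine and serine, and Tra2 proteins act in the same way on purine-rich enhancers. CLK kinases phosphorylate these domains in the nucleus, which releases SR proteins from nuclear speckles. Genes of this family control their own RNA: many of their transcripts can include a poison exon or keep an intron, and such transcripts are degraded by nonsense-mediated decay or held in the nucleus. In the GENCODE annotation of GRCm38, each of the 10 genes has between 1 and 3 transcripts typed as nonsense-mediated decay and between 1 and 7 typed as retained intron. The deposited values count reads per gene, so productive and unproductive transcripts are summed in every value below.

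Promoter sequences are shown for the 4 genes with the largest mean difference after CAWS and for Srsf5, whose mean went the other way. Each sequence is the 120 bases before a RefSeq start on GRCm38.p6, written 5′ to 3′ on the gene's strand. That start is not always the outer end of the gene. The Tra2a window lies inside the gene interval given above, and the windows of Srsf7 and Srsf5 reach into their genes. Of the windows counted below but not shown, those of Srsf1 and Srsf2 also lie inside their genes. For Tra2a, Srsf5 and Srsf6 the bases after the window did not stand unbroken in a GENCODE transcript of the gene. Tra2a lies on chr6:49264053-49264172 (minus strand), Tra2b on chr16:22266006-22266125 (minus), Srsf3 on chr17:29032540-29032659 (plus), Srsf7 on chr17:80207306-80207425 (minus) and Srsf5 on chr12:80945379-80945498 (plus). Capitals mark the letters searched, which were looked for on both strands and so may stand as their reverse complement: TATAAA for the TATA box, CCAAT for the box of that name, GGGCGG for the GC box, CCGGAAG for the ETS site and TGACGTCA for the CRE, the cyclic AMP response element.
Tra2a: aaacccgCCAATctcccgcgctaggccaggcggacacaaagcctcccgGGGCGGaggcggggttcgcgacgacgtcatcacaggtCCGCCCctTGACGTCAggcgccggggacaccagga
Tra2b: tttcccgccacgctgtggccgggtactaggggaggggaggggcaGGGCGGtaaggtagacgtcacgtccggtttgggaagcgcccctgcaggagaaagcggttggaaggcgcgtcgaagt
Srsf3: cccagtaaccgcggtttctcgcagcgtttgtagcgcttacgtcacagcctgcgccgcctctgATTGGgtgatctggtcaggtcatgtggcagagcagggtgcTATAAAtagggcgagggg
Srsf7: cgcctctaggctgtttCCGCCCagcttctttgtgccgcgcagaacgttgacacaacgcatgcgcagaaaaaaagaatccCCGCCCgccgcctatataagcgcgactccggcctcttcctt
Srsf5: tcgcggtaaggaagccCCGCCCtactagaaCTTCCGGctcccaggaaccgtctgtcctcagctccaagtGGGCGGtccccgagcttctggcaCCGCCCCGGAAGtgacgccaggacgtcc
The GC box letters were in 8 of the 9 member promoters with a RefSeq entry, against 26.48% of 32851 mouse promoter windows of the same length. The CRE letters were in 2 (Tra2a and Clk4), against 1.24% of windows. The CCAAT letters were in 3 (Tra2a, Srsf2, Srsf3), against 21.29%, the TATA letters in 2 (Srsf2, Srsf3), against 6.34%, and the ETS letters in 1 (Srsf5, with a GC box running into one of its matches), against 4.99%. The member windows had 58.3% to 80.0% G and C, against a median of 54.2% over all windows. No motif of this set was shared by Tra2a, Tra2b, Srsf3 and Srsf7, and these matches are letters in a window, not binding sites.

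The median library held 16763449 counted reads, the smallest 12800136 and the largest 23006155. CPM is the usual depth-scaled count of reads assigned to genes, here on library sizes scaled by TMM factors. Of 13275 genes tested, edgeR's quasi-likelihood test called those with a Benjamini-Hochberg adjusted p below 0.05. Macrophage marker RNA (Adgre1, Csf1r, Cd68, Fcgr1, Mertk, Lyz2) summed to between 17750 and 27880 CPM in all cardiac libraries. Ccr2, the sorted chemokine receptor, averaged 3667 ± 343 CPM in CAWS R3 and 2390 ± 304 CPM in naive R3 (SD, n = 3 each). It was not absent from the Ccr2-negative R1 gate, with 80.5 ± 40.5 CPM in CAWS R1 and 6.58 ± 2.04 CPM in naive R1. 1 library stood apart from its replicates, replicate 2 of the monocytes, whose smaller distance to its replicates was 1.371 times the distance between those. In bulk RNA, fewer cells of a type and less RNA per cell cannot be told apart.

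**Figure D1:**
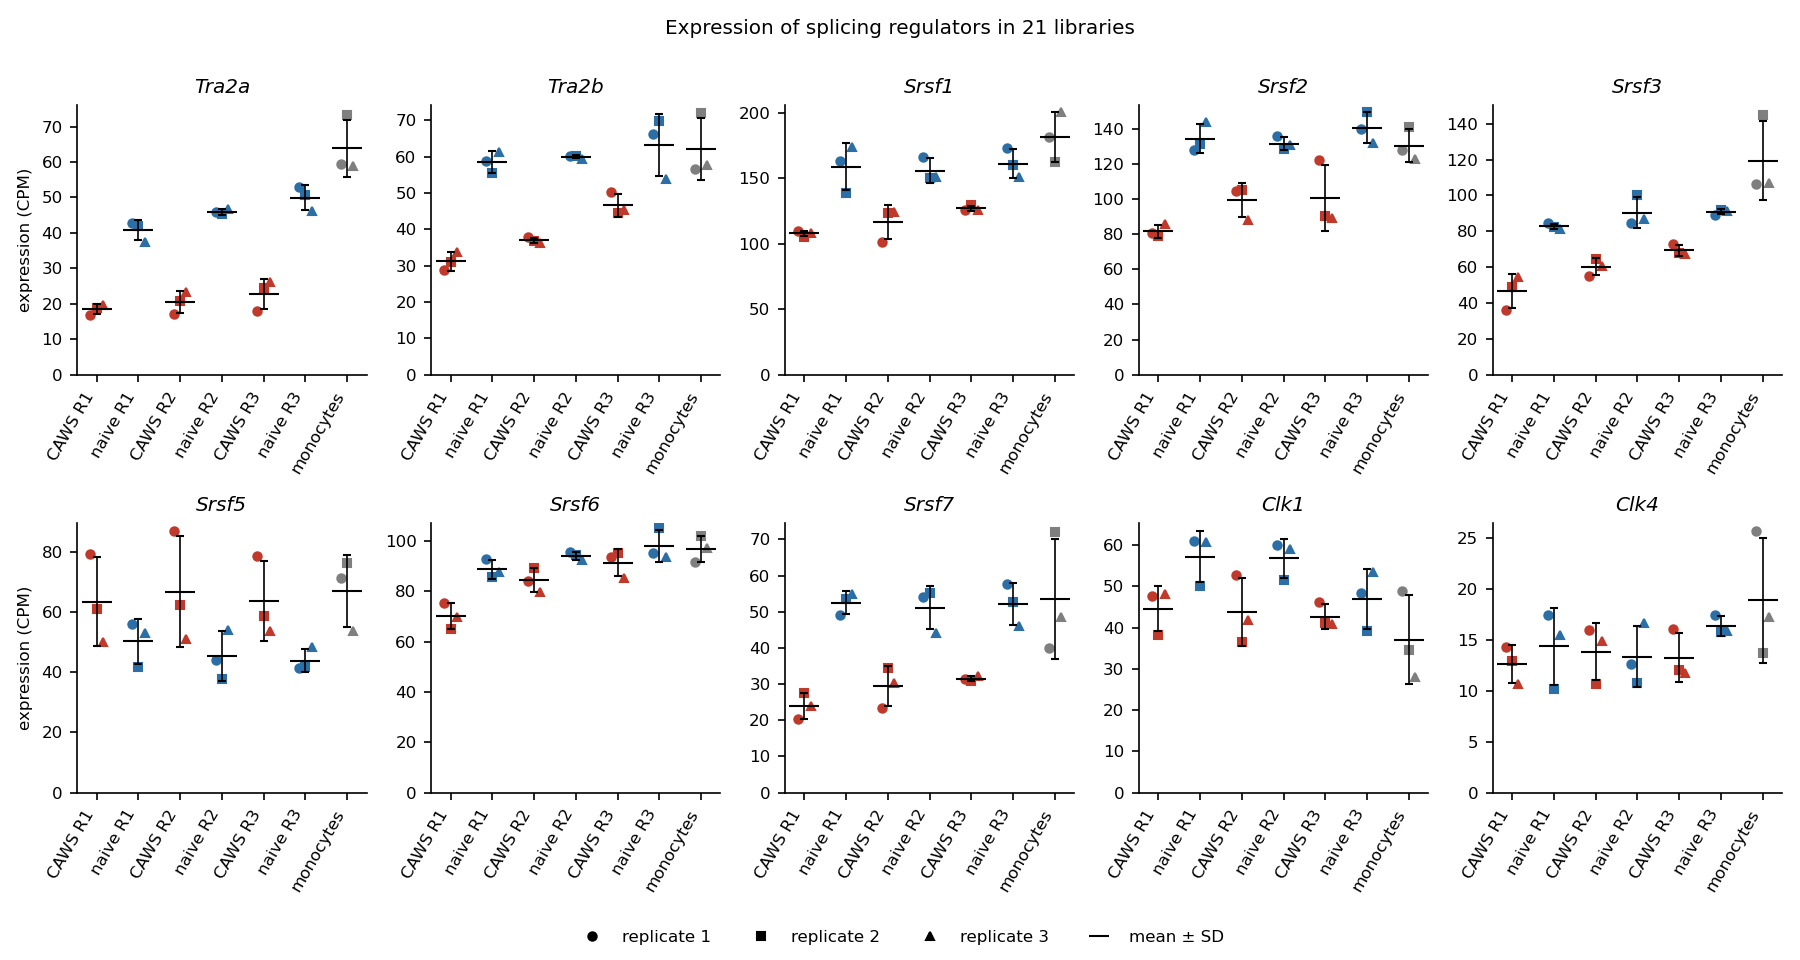
CPM of each of the 10 genes (y axis, from 0) in the 7 groups (x axis). Points are libraries, with marker shape giving the replicate number, and bars are the mean ± SD (n = 3). The CAWS points of Tra2a, Tra2b, Srsf1, Srsf2, Srsf3 and Srsf7 lie below the naive points of the same population, and those of Srsf5 reach above them.

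Tra2a, an activator of exon inclusion, stood at 16.8, 18.8 and 19.8 CPM in CAWS R1 and at 42.7, 42.0 and 37.5 CPM in naive R1. It was at 17.2, 20.9 and 23.4 CPM in CAWS R2 and at 45.9, 45.2 and 46.7 CPM in naive R2, and at 17.9, 24.3 and 26.0 CPM in CAWS R3 and 53.0, 50.8 and 46.2 CPM in naive R3. All 9 CAWS libraries were below all 9 naive cardiac libraries. The mean was 2.21-fold lower with CAWS in R1, 2.24-fold lower in R2 and 2.19-fold lower in R3, with log2 fold changes of -1.14 ± 0.14, -1.16 ± 0.14 and -1.13 ± 0.14 (SE). Monocytes had the highest levels, 59.5, 73.2 and 58.8 CPM, so the 7 groups ran from monocytes through naive R3, R2 and R1 to the CAWS groups. Neighbours in that order overlapped for naive R3 and R2 and among the 3 CAWS groups.

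Tra2b, the paralog with the same binding preference, was at 28.8, 30.9 and 33.8 CPM in CAWS R1 and 58.9, 55.4 and 61.4 CPM in naive R1. In R2 the CAWS libraries had 37.8, 36.8 and 36.3 CPM and the naive ones 60.1, 60.2 and 59.5 CPM. In R3 they had 50.2, 44.4 and 45.3 CPM with CAWS and 66.1, 69.9 and 53.7 CPM in naive mice. CAWS and naive libraries did not overlap in any population, while the 3 CAWS groups stood in the order R3, R2, R1 with no overlap between neighbours. The log2 fold changes were -0.91 ± 0.12 in R1, -0.70 ± 0.12 in R2 and -0.44 ± 0.12 in R3 (SE). The fold changes of Tra2a were alike in the 3 populations, and that of Tra2b was nearest to 0 in R3.

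Among the SR proteins, Srsf7 showed the largest difference. It had 20.4, 27.6 and 24.0 CPM in CAWS R1 and 49.0, 53.6 and 55.0 CPM in naive R1, 23.5, 34.4 and 30.4 CPM in CAWS R2 and 54.0, 55.1 and 44.2 CPM in naive R2, and 31.3, 30.9 and 32.2 CPM in CAWS R3 and 57.7, 52.8 and 46.0 CPM in naive R3. The groups did not overlap, and the log2 fold changes were -1.13 ± 0.18, -0.79 ± 0.18 and -0.73 ± 0.18 (SE). In R1 the Srsf7 mean was 2.19-fold lower, close to that of Tra2a, while in R2 and R3 it was 1.73-fold and 1.66-fold lower.

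Srsf3, the smallest SR protein, averaged 46.6 ± 9.49 CPM in CAWS R1 and 82.7 ± 1.60 CPM in naive R1 (SD, n = 3 each), a log2 fold change of -0.83 ± 0.14 (SE), with -0.59 ± 0.13 in R2 and -0.39 ± 0.13 in R3. Srsf2, an SR protein kept in the nucleus, averaged 81.8 ± 3.65 CPM in CAWS R1 and 134.5 ± 8.24 CPM in naive R1, and its log2 fold changes were -0.72 ± 0.11, -0.41 ± 0.11 and -0.48 ± 0.11 in R1, R2 and R3. Srsf1, the founding SR protein, averaged 107.8 ± 2.21 CPM in CAWS R1 and 158.6 ± 17.8 CPM in naive R1, with log2 fold changes of -0.56 ± 0.11, -0.42 ± 0.11 and -0.34 ± 0.11. For all 3 genes the CAWS and naive libraries did not overlap in any population. Srsf6, an SR protein close in sequence to Srsf5, differed less, with log2 fold changes of -0.34 ± 0.09 in R1, -0.16 ± 0.09 in R2 and -0.10 ± 0.09 in R3, and its libraries overlapped in R3.

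Srsf5, an SR protein with paralogs Srsf4 and Srsf6, was the exception in direction. It had 79.3, 61.1 and 50.01 CPM in CAWS R1 and 56.2, 41.7 and 53.0 CPM in naive R1, 87.1, 62.2 and 51.1 CPM in CAWS R2 and 44.2, 37.8 and 54.1 CPM in naive R2, and 78.7, 58.8 and 53.7 CPM in CAWS R3 and 41.5, 41.7 and 48.2 CPM in naive R3. The groups overlapped in R1 and R2 and not in R3. Its log2 fold changes were 0.33 ± 0.20, 0.55 ± 0.20 and 0.54 ± 0.21 (SE), and in CAWS R1 and R2 its libraries spread more than those of any other SR gene (SD 14.8 and 18.4 CPM).

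The kinase Clk1 averaged 44.6 ± 5.55 CPM in CAWS R1 and 57.2 ± 6.26 CPM in naive R1, 43.7 ± 8.24 CPM in CAWS R2 and 56.8 ± 4.69 CPM in naive R2, and 42.7 ± 2.96 CPM in CAWS R3 and 47.0 ± 7.29 CPM in naive R3 (SD, n = 3 each). Its libraries overlapped in R2 and R3, and the log2 fold changes were -0.36 ± 0.17, -0.38 ± 0.17 and -0.14 ± 0.17 (SE). Clk4, its close paralog, was the lowest of the set at 10.1 to 25.7 CPM over all 21 libraries, and its log2 fold changes of -0.19 ± 0.24, 0.03 ± 0.23 and -0.31 ± 0.24 were all within 1.5 standard errors of 0.

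**Figure D2:**
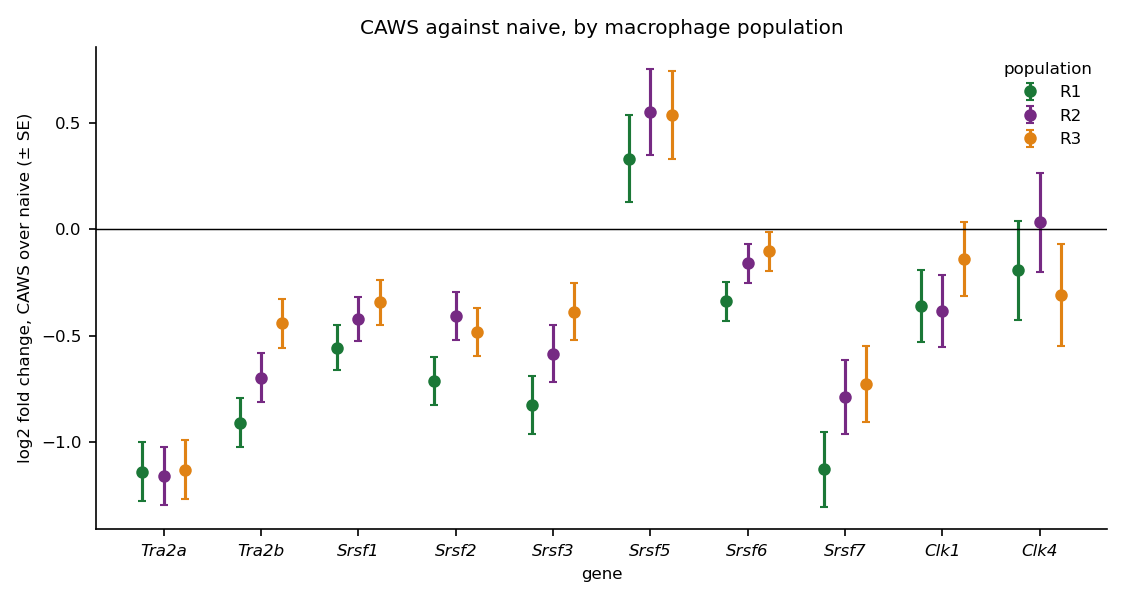
Log2 fold change of CAWS over naive (y axis, ± SE) for the 10 genes (x axis) in R1, R2 and R3 (colours). Tra2a lies near -1.1 in each population, 7 other genes lie below 0 in each, and Srsf5 lies above 0 in each.

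By the test used for all genes, 7 of the 10 were lower in R1, where 2.87% of tested genes were lower and 6.07% higher. In R2 it was 6 of 10, where 3.5% of genes were lower and 6.79% higher, and in R3 it was 5 of 10, where 8.29% were lower and 6.7% higher. None of the 10 was called higher by edgeR over all groups, while Srsf5 passed as higher in R3 with DESeq2 and with only the groups compared, and in R2 without CAWS replicate 3. Tra2a, Tra2b, Srsf1, Srsf2 and Srsf7 were among those called in each population, Srsf3 in R1 and R2, and Srsf6 in R1. The R1 call of Srsf6 was lost without naive replicate 1 or 3 or CAWS replicate 2 or 3, and with no filter. In R2, Srsf2 was lost without any 1 naive library or CAWS replicate 3, and Srsf1 without replicate 1 of either treatment. Srsf3 was lost there without naive replicate 2. In R3, Srsf1 was lost with no filter or without any 1 library but naive replicate 3. Tra2b was lost there without replicate 2 of either, Srsf2 without CAWS replicate 2 and Srsf7 without CAWS replicate 1. The median log2 fold change of the 10 was -0.64, -0.41 and -0.37 in R1, R2 and R3, against 0.03, 0.02 and -0.06 over all genes. Because the genes were chosen on this contrast, these counts and calls describe the set and are not read further. The same holds for whether a call is kept or lost under an alternative. The count in R3 was 3 without naive replicate 2, 3 without CAWS replicate 1 and 2 without CAWS replicate 2, and it was 7 with only the groups compared, where Srsf3 was also called lower and Srsf5 higher. In R2 that setting and limma voom also gave 7, with Clk1 lower. Summed over the 8 Tra2 and SR genes, the level was 443.5 ± 5.87 CPM in CAWS R1 and 666.6 ± 31.7 CPM in naive R1, 514.0 ± 21.6 CPM in CAWS R2 and 674.7 ± 11.3 CPM in naive R2, and 553.2 ± 35.4 CPM in CAWS R3 and 699.9 ± 33.3 CPM in naive R3 (SD, n = 3 each).

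The size of the CAWS difference was compared between populations as an interaction. These values come from the contrast on which the genes were chosen, and a like difference of Tra2a in all 3 populations was part of that choice, so they are a description. For Tra2a the response in R2 minus that in R1 was -0.02 ± 0.20 on the log2 scale, R3 minus R1 was 0.01 ± 0.20 and R3 minus R2 was 0.03 ± 0.20 (SE). For Tra2b, R3 minus R1 was 0.47 ± 0.16, and for Srsf3 it was 0.44 ± 0.19 (SE). By edgeR's test 0 of the 10 genes passed in any of the 3 interactions, where 0.0527% (R2 minus R1), 2.26% (R3 minus R1) and 2.33% (R3 minus R2) of all genes did. At an unadjusted p below 0.05 there were 0, 2 (Tra2b and Srsf3) and 0, and DESeq2 and limma voom also called 0. Without the monocyte library that stood apart, edgeR called 1, Tra2b in R3 minus R1 (0.54 on the log2 scale). Nothing further is read from these counts.

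Per kilobase of the deposited gene length, which allows genes to be compared, Srsf2 led every group, with 43.0 ± 1.92 CPM per kb in CAWS R1 and 70.7 ± 4.33 CPM per kb in naive R1 (SD, n = 3 each). Srsf5 was the second in all 3 CAWS groups, at 38.4 ± 8.93 CPM per kb in CAWS R1, whereas in naive R3 it was the seventh at 26.5 ± 2.31 CPM per kb. In naive R3, Srsf1, Srsf3, Tra2b, Srsf6, Tra2a and Srsf5 spanned only 26.5 to 30.6 CPM per kb. Tra2a was the eighth in all 3 CAWS groups, at 10.1 ± 0.82 CPM per kb in R1, and was the sixth in naive R3 and the fourth in monocytes. Clk4 was the lowest in every group, at 6.67 ± 0.97 CPM per kb in CAWS R1 and 7.57 ± 1.99 CPM per kb in naive R1.

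Within CAWS, libraries with the same replicate number had similar deviations for some of these genes. Replicate 1 held the lowest Tra2a of its population in R1, R2 and R3 (16.8, 17.2 and 17.9 CPM) and the highest Srsf5 (79.3, 87.1 and 78.7 CPM) and Clk4 (14.3, 15.9 and 16.02 CPM). Replicate 3 held the lowest Srsf5 in all 3 populations (50.01, 51.1 and 53.7 CPM) and the highest Tra2a (19.8, 23.4 and 26.0 CPM). Thus the CAWS libraries lowest in Tra2a were those highest in Srsf5. In naive mice replicate 2 held the lowest Clk1 (49.98, 51.4 and 39.1 CPM) and Clk4 (10.1, 10.8 and 15.7 CPM) in all 3 populations. It held the lowest Srsf5 only in R1 and R2 (41.7 and 37.8 CPM). These genes were picked after all members were looked at. For Tra2b, Srsf1, Srsf2, Srsf3, Srsf6 and Srsf7 no number was highest or lowest in all 3 populations of a treatment. How often such a match arises by chance was not tested. The labels give a replicate number for each library but do not say that a number marks 1 pool of mice.

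**Figure D3:**
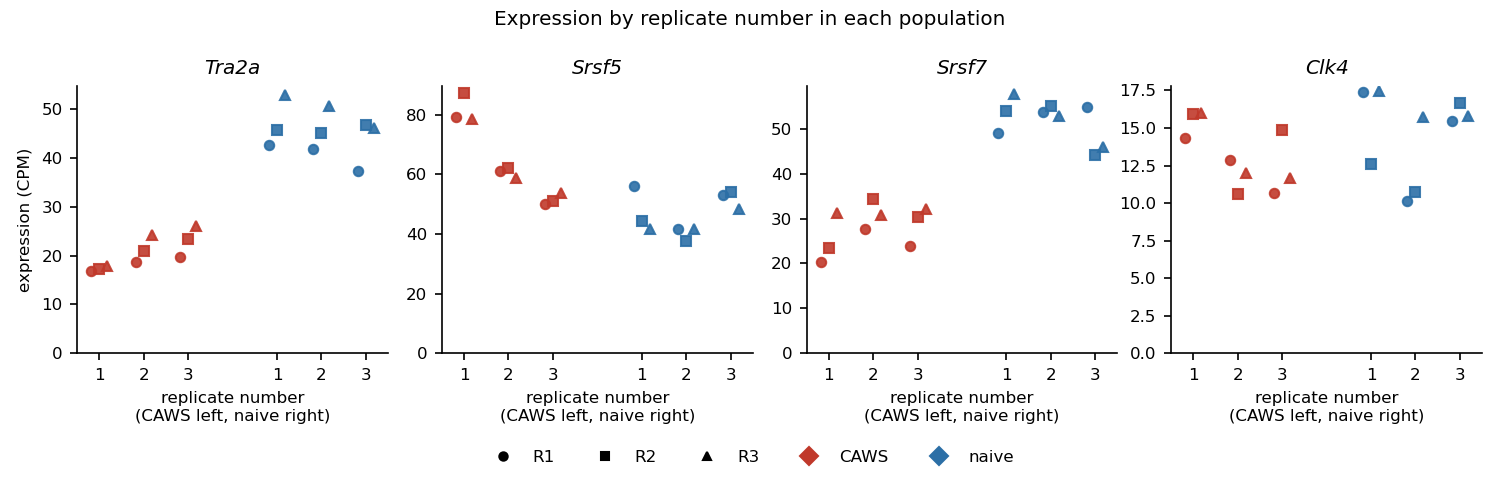
CPM (y axis, from 0) of Tra2a, Srsf5, Srsf7 and Clk4 by replicate number (x axis) in CAWS (red, left) and naive (blue, right) cardiac libraries, with marker shape giving the population. In CAWS, replicate 1 has the lowest Tra2a and the highest Srsf5 and Clk4 in each population.

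The rule that chose the genes compared CAWS with naive libraries and did not compare the naive groups with each other or with monocytes, so those comparisons were tested, although the naive cardiac libraries were 1 arm of the contrast behind the choice and earlier results were known. Between the naive populations, edgeR called 0 of the 10 genes in R2 against R1, R3 against R1 and R3 against R2, although 7.13%, 23.2% and 12.4% of all genes passed. At an unadjusted p below 0.05 there were 0, 1 and 0, and DESeq2 and limma voom called 0. The 1 gene was Tra2a, at 53.0, 50.8 and 46.2 CPM in naive R3 and 42.7, 42.0 and 37.5 CPM in naive R1, a log2 difference of 0.29 ± 0.13 (SE, adjusted p = 0.116). The other log2 differences between naive populations ran from -0.29 to 0.28, with Clk1 at the low end in R3 against R1 (-0.29 ± 0.17) and Clk4 at the high end in R3 against R2 (0.28 ± 0.23).

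Naive macrophages differed from naive splenic monocytes in some of these genes, with Tra2a and Srsf3 lower and Clk1 higher. Tra2a was lower in R1 by a log2 fold change of -0.65 ± 0.13 (adjusted p = 0.000197), in R2 by -0.47 ± 0.13 (adjusted p = 0.00316) and in R3 by -0.35 ± 0.13 (adjusted p = 0.025), with no overlap of libraries. Clk1 was at 60.9, 49.98 and 60.8 CPM in naive R1, 59.95, 51.4 and 59.1 CPM in naive R2 and 48.9, 34.5 and 27.9 CPM in monocytes. All 6 of those macrophage libraries were above the 3 monocyte libraries, and Clk1 was higher by 0.63 ± 0.17 in R1 (adjusted p = 0.00321) and by 0.62 ± 0.17 in R2 (adjusted p = 0.0035), while in R3 the difference was 0.34 ± 0.17 (adjusted p = 0.0969).

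Srsf3 averaged 82.7 ± 1.60 CPM in naive R1, 90.5 ± 8.40 CPM in naive R2, 90.8 ± 1.41 CPM in naive R3 and 119.4 ± 22.1 CPM in monocytes (SD, n = 3 each). It was lower in R1 (-0.53 ± 0.13, adjusted p = 0.00139), R2 (-0.40 ± 0.13, adjusted p = 0.0108) and R3 (-0.39 ± 0.13, adjusted p = 0.0133). Srsf5 was lower in R2 (-0.56 ± 0.20, adjusted p = 0.0216) and R3 (-0.61 ± 0.21, adjusted p = 0.0147), and in R1 its difference was -0.41 ± 0.20 (adjusted p = 0.0846). Tra2b, Srsf2, Srsf6 and Srsf7 lay within 0.13 of 0 on the log2 scale in all 3 comparisons with all libraries, but with 1 library left out Srsf7 lay between -0.22 and 0.26 in R1, between -0.27 and 0.21 in R2 and between -0.24 and 0.24 in R3. In all, 3, 4 and 3 of the 10 genes passed in R1, R2 and R3, where 63.3%, 63.6% and 58.9% of all genes passed.

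Several of these monocyte results rested on single libraries or on the method. Without monocyte replicate 2, the one that stood apart, the adjusted p was 0.108 for Tra2a in R3, 0.093 and 0.101 for Srsf3 in R2 and R3, and 0.12 and 0.0878 for Srsf5 in R2 and R3. Without that library Srsf1 passed as lower in R1 (-0.26, adjusted p = 0.0345), R2 (-0.29, adjusted p = 0.0176) and R3 (-0.25, adjusted p = 0.0441), and Clk4 passed as lower in R1 (-0.55, adjusted p = 0.038) and R2 (-0.66, adjusted p = 0.0129). Tra2a in R3 also missed the threshold without naive R3 replicate 3 (adjusted p = 0.0938), and Srsf5 in R2 without naive R2 replicate 1 or 2 or monocyte replicate 1 (adjusted p = 0.0577, 0.0874 and 0.0544). Srsf1 in R1 passed without naive R1 replicate 3 (adjusted p = 0.0418), Srsf5 in R1 without monocyte replicate 3 (adjusted p = 0.029), and Clk4 in R2 without naive R2 replicate 3 or monocyte replicate 3 (adjusted p = 0.0257 and 0.0475). Clk1 in R3 passed without naive R3 replicate 2 or monocyte replicate 1 (adjusted p = 0.0445 and 0.0107). With limma voom the adjusted p was 0.0644 for Tra2a and 0.0593 for Srsf3 in R3. With only the groups compared it was 0.104 for Tra2a in R3 and 0.0745 and 0.0859 for Srsf3 in R2 and R3. Srsf1 in R2 passed as lower with DESeq2 (adjusted p = 0.0364), RLE factors (0.045) and limma voom (0.00969). With limma voom, Srsf1 in R1 (0.0475) and Clk4 in R1 and R2 (0.0321 and 0.00204) also passed as lower. Tra2a in R1 and R2, Clk1 in R1 and R2, and Srsf3 in R1 kept their calls under every alternative run.

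**Figure D4:**
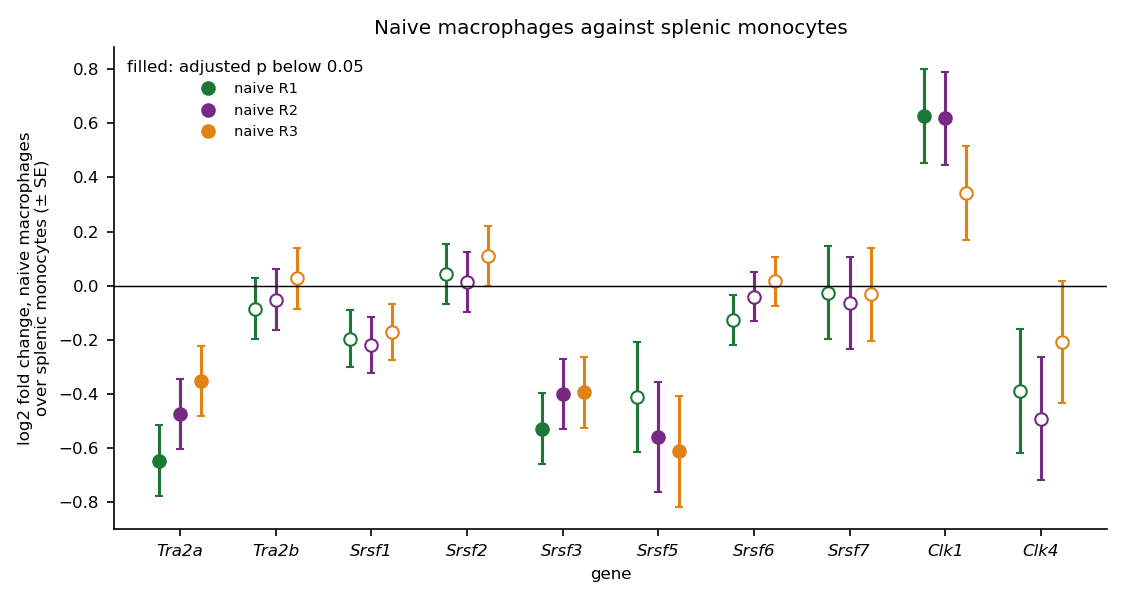
Log2 fold change of naive R1, R2 and R3 macrophages over splenic monocytes (y axis, ± SE) for the 10 genes (x axis). Filled points passed at an adjusted p below 0.05: Tra2a and Srsf3 are lower in all 3 populations, Srsf5 in R2 and R3, and Clk1 is higher in R1 and R2.

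The splicing machinery outside the 10 genes was followed in 7 lists holding 124 genes, of which 123 were tested. With CAWS, 11 were lower and 2 higher in R1, 12 and 2 in R2, and 21 and 4 in R3. Of all genes tested, 2.87%, 3.5% and 8.29% were lower in R1, R2 and R3, and 6.07%, 6.79% and 6.7% were higher. The median log2 fold change of the lists was -0.11, -0.12 and -0.13, against 0.03, 0.02 and -0.06 over all genes. The lists were drawn up with earlier results of these data known. 7 genes were lower in all 3 populations (Srsf10, Rbm39, Arglu1, Hnrnpab, Hnrnph1, U2af2, Dhx15) and 2 higher (Pcbp2, Smg9). Under the alternatives, R1 had 10 to 24 lower genes, R2 had 6 to 32 and R3 had 10 to 38. The highest counts came without monocyte replicate 2 in R1, with only the groups compared in R2 and with limma voom in R3. Single libraries lowered the R2 count to 6 (without naive replicate 3) and 7 (without CAWS replicate 2 or 3), and the R3 count to 13 (without naive replicate 1) and 10 (without CAWS replicate 1 or 2).

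Among the 5 SR proteins outside the set, Srsf10, a splicing repressor when dephosphorylated, averaged 29.7 ± 5.18 CPM in CAWS R1 and 53.0 ± 6.09 CPM in naive R1 (SD, n = 3 each) and fell by 0.83 ± 0.14 in R1 (SE, adjusted p = 0.000684), by 0.72 ± 0.14 in R2 (adjusted p = 0.00174) and by 0.64 ± 0.14 in R3 (adjusted p = 0.0043, and 0.0566 without CAWS R3 replicate 1). Srsf4, Srsf9 and Srsf11 were not called in any population, and Srsf12 had too few reads to test. Of 20 SR-related and speckle proteins, 2, 3 and 4 were lower in R1, R2 and R3. Rbm39, a U2AF-like speckle protein, averaged 110.8 ± 10.3 CPM in CAWS R1 and 190.1 ± 8.54 CPM in naive R1, and fell by 0.78 ± 0.13, 0.77 ± 0.13 and 0.69 ± 0.13 on the log2 scale (adjusted p = 0.000635, 0.000468 and 0.00114). Luc7l, a U1 snRNP-associated protein, fell by 0.83 ± 0.17 in R2 (adjusted p = 0.0019) and by 0.72 ± 0.17 in R3 (adjusted p = 0.00526), and differed by -0.50 in R1 without passing (adjusted p = 0.0619), although it passed there under 7 of 14 alternatives, among them without naive replicate 2 and without monocyte replicate 2 (lowest adjusted p = 0.0241). Arglu1 fell in all 3 (adjusted p = 0.00969, 0.0429 and 0.00874), but not in R2 without naive replicate 2 or 3 (adjusted p = 0.0945 and 0.189) or CAWS replicate 2 or 3 (adjusted p = 0.0968 and 0.178), nor in R3 without CAWS replicate 2 (adjusted p = 0.0712).

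Of 12 further kinases, import factors and phosphatase regulators, which include Clk2, Clk3, Srpk1 and Srpk2, 1, 0 and 2 were lower in R1, R2 and R3. The lower ones were Ppp1r8, a nuclear regulator of protein phosphatase 1, in R1 (-0.60 ± 0.12, adjusted p = 0.00247) and R3 (-0.51 ± 0.12, adjusted p = 0.00555, and 0.0532 without CAWS R3 replicate 1), and Tnpo3, the importin of SR proteins, in R3 (-0.47 ± 0.11, adjusted p = 0.00466). Srpk1, the cytoplasmic SR protein kinase, was at 17.1 ± 1.71 CPM in CAWS R2 and 11.9 ± 1.44 CPM in naive R2 and did not pass (adjusted p = 0.0692).

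Of 25 genes of the hnRNP family, many of which oppose SR proteins at splice sites, 1 was higher and 3 were lower in each population. Pcbp2, a poly(C)-binding protein, rose by 0.62 ± 0.10 in R1 (adjusted p = 0.000271), by 0.57 ± 0.10 in R2 (adjusted p = 0.000347) and by 0.59 ± 0.10 in R3 (adjusted p = 0.000202), and averaged 444.8 ± 41.1 CPM in CAWS R1 and 290.3 ± 14.2 CPM in naive R1. Hnrnph1, which binds G-rich elements, fell by 0.50 ± 0.10, 0.60 ± 0.10 and 0.53 ± 0.10 (adjusted p = 0.00186, 2e-04 and 0.000571). Hnrnpab fell by 0.49 ± 0.09 in R1 (adjusted p = 0.000986). Its calls in R2 and R3 (adjusted p = 0.0444 and 0.0262) were lost without any 1 of the 6 R2 libraries and without any of 5 R3 libraries, all but naive replicate 3 (highest adjusted p = 0.188 and 0.139).

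Of 18 other splicing regulators, 1, 3 and 4 were lower in R1, R2 and R3. Celf1, a CUG-binding regulator of alternative exons, fell by 0.68 ± 0.18 in R2 (SE, adjusted p = 0.0198), a call lost without naive R2 replicate 1 or 3 or CAWS R2 replicate 1 or 2 (highest adjusted p = 0.0815). It was also called lower in R3 (-0.66), a call lost under 3 of 14 alternatives, each with 1 library left out.

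Of 30 core spliceosome genes, 3, 2 and 6 were lower in R1, R2 and R3, and 1 was higher in R3. Dhx15, the helicase that takes the spliceosome apart, fell by 0.41 ± 0.09, 0.45 ± 0.09 and 0.43 ± 0.09 (adjusted p = 0.00384, 0.00116 and 0.0015). U2af2, which binds the polypyrimidine tract, fell by 0.54 ± 0.09, 0.35 ± 0.09 and 0.59 ± 0.09 (adjusted p = 0.000416, 0.0126 and 8.4e-05), and in R2 missed the threshold without naive replicate 2 or CAWS replicate 3 (adjusted p = 0.0511 and 0.0693). Snrpe, a core snRNP protein, rose in R3 by 0.97 ± 0.23 (adjusted p = 0.00607). Of 14 genes of nonsense-mediated decay, Smg9, a regulator of the Smg1 kinase, rose by 0.47 ± 0.12 in R1 (adjusted p = 0.02), by 0.68 ± 0.12 in R2 (adjusted p = 0.000681) and by 0.69 ± 0.12 in R3 (adjusted p = 0.000562). Its call in R1 was lost without naive replicate 2 or 3 (adjusted p = 0.112 and 0.079) or CAWS replicate 1 or 2 (adjusted p = 0.0872 and 0.0673). In R3, Upf3a of the same list was also called higher (0.43) and Smg5 was called lower (-0.49). These 2 calls were lost under 3 and 6 of 14 alternatives.

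**Figure D5:**
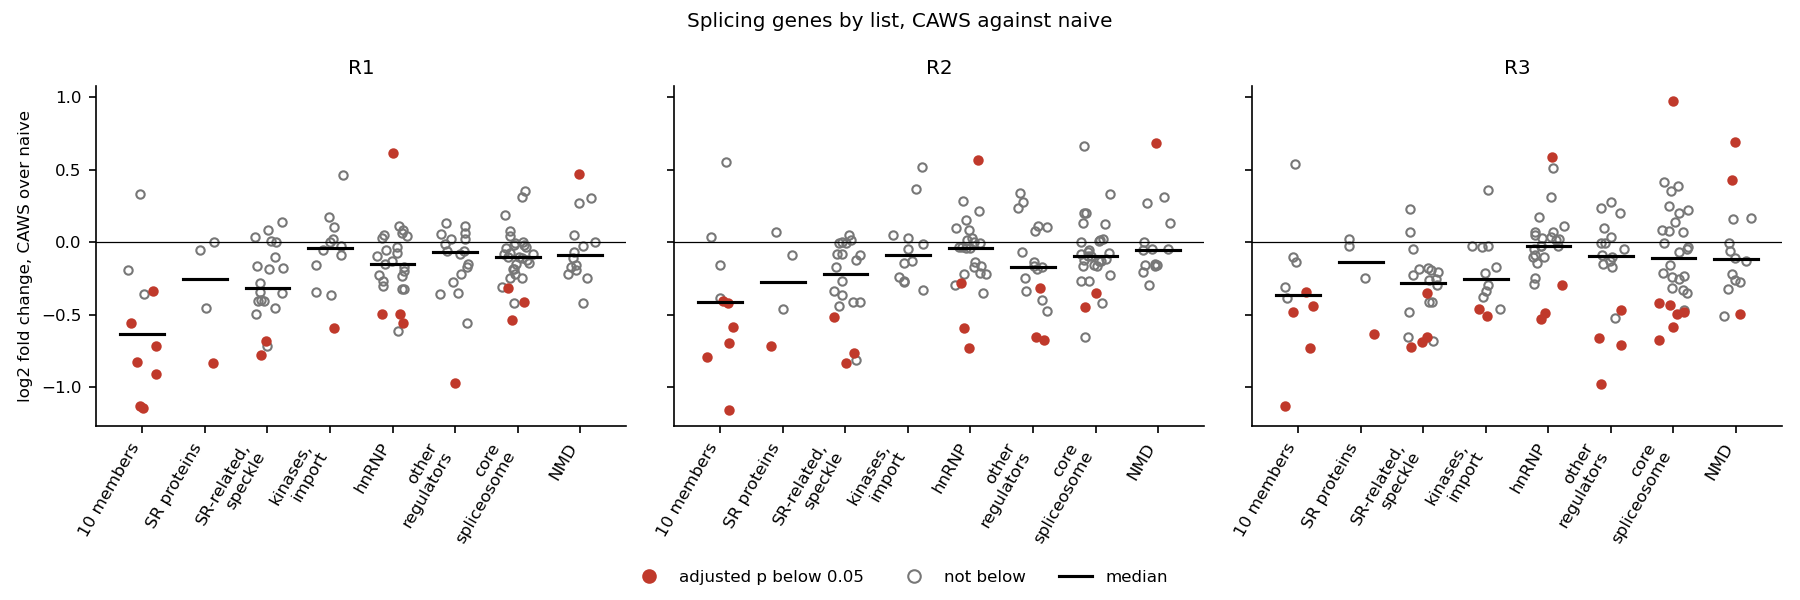
Log2 fold change of CAWS over naive (y axis) for the 10 genes and for 7 lists of other splicing genes (x axis) in R1, R2 and R3. Points are genes, red where the adjusted p is below 0.05, and bars are medians. The 10 genes were chosen on this contrast and their medians (-0.64, -0.41 and -0.37) lie below those of the lists.

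Other RNA moved with CAWS in the same libraries. Over all genes tested, 2.87%, 3.5% and 8.29% were lower in R1, R2 and R3, and 6.07%, 6.79% and 6.7% were higher. Of 22 immediate early genes, which also respond to cell dissociation, 3 were lower in R1, 3 in R2 and 8 in R3, and 0, 2 and 1 were higher. Their summed level was 2225 to 2627 CPM in CAWS R1 and 2843 to 4013 CPM in naive R1, 2388 to 2729 CPM in CAWS R2 and 2929 to 3381 CPM in naive R2, and 2413 to 2944 CPM in CAWS R3 and 3604 to 4722 CPM in naive R3, with 13590 to 22640 CPM in monocytes. Klf2, a zinc finger transcription factor, fell by 1.06 ± 0.15, 0.83 ± 0.15 and 1.32 ± 0.15 (adjusted p = 0.000109, 0.000794 and 4.01e-06). Of 11 heat shock genes, the co-chaperone Dnajb1 fell by 1.08 ± 0.15, 0.85 ± 0.15 and 1.14 ± 0.16 (adjusted p = 0.000105, 0.000675 and 2.61e-05), while Hspa8 rose in R3 by 0.80 ± 0.16 (adjusted p = 0.00156). The part of these genes in the splicing factor levels was not tested.

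Markers of other cells moved as well. The counts below stand beside 6.07%, 6.79% and 6.7% of all genes higher in R1, R2 and R3, and 2.87%, 3.5% and 8.29% lower. Of 6 monocyte markers, 2, 5 and 2 were higher with CAWS in R1, R2 and R3, and their sum was 19.8 to 113.2 CPM in CAWS R1 and 8.61 to 21.9 CPM in naive R1, 36.4 to 63.3 CPM in CAWS R2 and 3.57 to 6.10 CPM in naive R2, and 109.5 to 191.7 CPM in CAWS R3 and 44.2 to 70.4 CPM in naive R3, with 4870 to 8235 CPM in monocytes. Naive splenic monocytes had more Tra2a (58.8 to 73.2 CPM) than any macrophage library, and no monocytes from hearts or from CAWS mice were sequenced. Of 6 dendritic cell markers, 3, 5 and 0 were higher, with sums of 19.2 to 50.9 CPM in CAWS R1 and 8.75 to 10.9 CPM in naive R1, 114.0 to 324.5 CPM in CAWS R2 and 13.1 to 16.9 CPM in naive R2, and 216.9 to 391.6 CPM in CAWS R3 and 265.3 to 529.9 CPM in naive R3. Of 6 resident macrophage markers, 2, 0 and 6 were lower, with sums of 10660 to 13800 CPM in CAWS R1 and 16690 to 18570 CPM in naive R1, 7223 to 7354 CPM in CAWS R2 and 8388 to 9877 CPM in naive R2, and 2679 to 2751 CPM in CAWS R3 and 4524 to 7782 CPM in naive R3. None of these 3 lists had a marker at 0 in a whole group. The part of monocytes, dendritic cells and resident cells in the splicing factor levels was not tested. Neutrophil marker sums did not overlap, at 64.9 to 79.6 CPM in CAWS R1 and 45.1 to 49.2 CPM in naive R1, 72.6 to 78.3 CPM in CAWS R2 and 58.9 to 65.2 CPM in naive R2, and 103.0 to 108.1 CPM in CAWS R3 and 52.6 to 63.7 CPM in naive R3, with Ly6g at 0 in all cardiac libraries. Of the 4 neutrophil markers tested, 1, 0 and 1 were higher. Mast cell marker sums were 7.01 to 10.2 CPM in CAWS R2 and 0.40 to 0.57 CPM in naive R2, with 1 of 4 tested markers higher. In R1, cardiomyocyte marker sums were 54.3 to 62.7 CPM with CAWS and 27.4 to 40.3 CPM in naive mice (2 of 6 higher). They overlapped in R2 and went the other way in R3, at 38.4 to 60.5 CPM with CAWS and 68.2 to 86.9 CPM in naive mice. Endothelial sums were 16.8 to 20.3 CPM with CAWS and 6.68 to 10.2 CPM in naive mice in R1 (1 of 5 higher). In R2 they were 18 to 25.75 CPM and 12.65 to 14.1 CPM, and they overlapped in R3. Fibroblast and mural sums were 31.8 to 36.1 CPM in CAWS R1 and 15.1 to 29.5 CPM in naive R1. They were 36.4 to 83.3 CPM in CAWS R2 and 23.0 to 35.9 CPM in naive R2, and overlapped in R3. The part of these cells in the splicing factor levels was not tested. T and NK cell markers were low, with NK sums of 5.52 to 20.9 CPM in CAWS R1 and 0.37 to 2.00 CPM in naive R1, where Ncr1, Gzma, Cd3d, Cd3e, Cd3g and Lck had no reads.

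Genes whose level followed that of Tra2a most closely were sought over the 18 cardiac libraries after the mean of each population was subtracted. The 5 nearest outside the set were Cebpg, a C/EBP family transcription factor (Pearson r = 0.974), Eif4g2, a translation initiation factor (0.970), Tlr4, the lipopolysaccharide receptor (0.963), the integrin Itga9 (0.960) and the transcription factor Ets2 (0.959). Within the set, Srsf7 (0.936), Srsf1 (0.911), Tra2b (0.904) and Srsf3 (0.888) followed Tra2a, and Srsf5 ran against it (-0.806). With the mean of each group subtracted instead, which removes the CAWS difference, r with Tra2a was 0.422 for Srsf7, 0.307 for Srsf1, 0.245 for Srsf3, -0.066 for Tra2b and -0.712 for Srsf2 (0.818 before), while Srsf5 stayed at -0.772. With Tra2a, r of Srsf6 went from 0.718 to -0.276 and that of Clk4 from 0.184 to -0.396. Clk1 was nearest to Fam76b (0.886), Rsrp1 (0.885), Luc7l3 (0.841), Hps3 (0.825) and Srsf11 (0.819), and had r = 0.573 with Tra2a and 0.488 with Clk4. With group means subtracted, r of Clk1 was -0.493 with Tra2a and 0.587 with Clk4. These 18 points share the difference between CAWS and naive mice, which was used to choose Tra2a, and populations may share a pool, so the values describe likeness and carry no p.

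Reads of some members could be split with other loci. Of the 50-base words in the GENCODE protein-coding transcripts, 31.5% of those of Srsf3, 23.6% of Srsf5, 17.6% of Tra2b and 0.787% of Srsf7 also occur in other annotated genes, mostly in pseudogene models that are not in the counts table, and 0% of those of the other 6. The levels of Srsf3, Srsf5 and Tra2b are less certain to that extent. Exons of Srsf2 overlap the opposite-strand genes Mettl23 over 460 bases and Mfsd11 over 288 bases, and since the strand setting is not given, their reads cannot be told apart there. Neither Mettl23 nor Mfsd11 was called in a CAWS comparison.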

How the data were processed

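RNA was prepared with a column kit and TruSeq libraries, per the labels' protocols. The authors deposited raw read counts per gene, made with featureCounts on mm10, per the submitters' processing notes. No source used here names the aligner, the annotation or the strand setting. The 21 single-library tables equalled the combined table in 21 of 21 cases. Of 27179 IDs, 25275 matched a symbol. Under R 4.3.3, edgeR 4.0.16 fitted the counts (robust quasi-likelihood, TMM factors 0.9093 to 1.065, filterByExpr with a minimum count of 10 and total of 15) over all 7 groups without a replicate block. 13275 genes were tested, and p-values were adjusted by Benjamini-Hochberg over all of them, with 12 comparisons. The standard error of a log2 fold change was its size divided by the square root of F. The labels name independent pools only for each treatment, so the p-values measure the spread between these libraries. The 10 genes and all lists were chosen with earlier results of these data known. By the rule for named genes, each list gave up to 4 called genes with the smallest p in each CAWS comparison, or up to 2 where none was called, and the 5 genes most like Tra2a and Clk1. A gene that this rule names is not reported here. Alternatives were DESeq2 1.42.0, limma 3.58.1 voom, RLE factors, other filters, only the groups compared, a replicate block, and each library left out. For the interactions and the naive comparisons a replicate block within each treatment was also fitted. Leaving out the library that stood apart was chosen after seeing the data.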

Additional observations from a re-analysis of the deposited data

How the results depend on the processing

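No called value changed direction under an alternative. Of the 10 genes, the number that passed in naive R1 against monocytes was 3, and 5 with limma voom and without the monocyte library that stood apart. In naive R3 against monocytes it was 3, and 1 with limma voom, with only the groups compared in the fit, and without that monocyte library. In the CAWS response of R3 minus R1 it was 0, and 1 without that library (Tra2b). With each library left out in turn, the count was 6 to 7 in CAWS R1, 4 to 6 in CAWS R2 and 2 to 5 in CAWS R3. It was 3 to 5 in naive R1 against monocytes and 1 to 4 in naive R3 against monocytes. The cause was not tested. Replicate numbers are given in the labels but not tied to a pool. Same-numbered libraries of 1 treatment had deviations correlated at 0.016 to 0.253 over all genes, with 6 of 18 pairs over 0.1, so the numbers were not taken to pair samples. Among genes whose log2 CPM averaged 4 or more the range was 0.154 to 0.394 in naive and 0.151 to 0.638 in CAWS mice, all over 0.1. As a hint from the data, 18 of 18 naive and 15 of 18 CAWS cases correlated best with their own number over all genes, and 18 of 18 in both among those genes. Same-numbered libraries of CAWS and of monocytes, from different mice, also correlated, at -0.038 to 0.3415 over all genes, with 5 of 9 pairs over 0.1. For CAWS with naive cardiac libraries it was 1 of 27 pairs, and for monocytes with naive cardiac libraries 1 of 9. The hint therefore does not show that a number marks a pool. The replicate block gave each number 1 effect shared by CAWS, naive and monocyte libraries, although each treatment had its own pools, so it is not a fit by pool. With that block the 10 genes had 7, 6 and 6 calls in CAWS R1, R2 and R3, with Srsf3 gained in R3. These calls are a description, since the genes were chosen on that contrast. Against monocytes Srsf5 passed in naive R1 (adjusted p = 0.0479), Clk4 in R2 (0.0272) and Clk1 in R3 (0.035). A block within each treatment, fitted for the interactions and the naive comparisons, called 0 of the 10. Over all genes, the alternatives called 673 to 1801 in CAWS R1 (1187 as reported), 726 to 2808 in R2 (1365) and 973 to 3283 in R3 (1991). For the interactions they called 1 to 57 (7), 180 to 479 (300) and 188 to 623 (309), and between naive populations 588 to 1531 (946), 2410 to 3844 (3074) and 1060 to 2313 (1646). Without TMM factors, 8 of 70 group levels of the 10 genes moved by over 1 SD.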
